A study of Homo sapiens with 97 samples.

Results

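The 4 human HOX gene clusters and 1 Mb of sequence on each side of them were examined for replication timing, replication origin peaks and induced break sites. The regions were taken by position on hg19, the genome build named in the submitters' processing notes. HOXA was taken as 27.13 to 27.25 Mb on chromosome 7, HOXB as 46.60 to 46.81 Mb on chromosome 17, HOXC as 54.33 to 54.45 Mb on chromosome 12 and HOXD as 176.95 to 177.06 Mb on chromosome 2. These spans and their 8 flanks held 57 of the 22720 timing intervals, 21 of the 3750 peaks and 0 of the 129 break sites. The 38 HOX genes listed for them comprise 10 in HOXA, 10 in HOXB, 9 in HOXC and 9 in HOXD.

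The series studied DNA replication near double-strand breaks and held 97 samples, of which 4 carried the 6 region lists used here. Timing came from U2OS cells, a wild-type human osteosarcoma line, left untreated and deposited as 1 merged G1 sample and 1 merged S phase sample. The peaks came from NS-seq (nascent strand sequencing), a method that maps short RNA-primed strands made at origins of replication. NS-seq was run in AsiSI-U2OS cells, which carry the restriction enzyme AsiSI, with 2 untreated samples and 2 samples given 300 nM 4-hydroxytamoxifen (4OHT) for 4 h to induce breaks. The single merged peak list was attached to an input sample and could not be assigned to treated or untreated cells. Break sites are AsiSI sites overlapping the nuclease MRE11 in HCT116 colorectal carcinoma cells that lacked LIG4, a ligase of end joining, and carried the cohesin subunit RAD21 with a degron tag (AID). These cells were given 300 nM 4OHT for 4 h.

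Each list is a single set of calls, so no value below has replicate error and no test was run. Read depth is unknown. No file measures expression, so neither the identity of the cells nor the activity of the HOX genes was checked here.

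HOX genes encode homeodomain transcription factors that set position along the body axis. Within a cluster the order of the genes follows the order of their expression domains, from the low-numbered paralogue groups at the head end to group 13 at the tail end, in the limbs and in the genital tract. Clusters that a cell does not use are commonly covered by Polycomb proteins and their repressive histone mark. Replication timing is the order in which chromosome segments are copied in S phase, with active chromatin usually early and compact chromatin late. The 4 deposited lists divide the genome into early, mid-early, mid-late and late sequence, numbered here from rank 1 (early) to rank 4 (late).

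All 38 genes were found in the RefSeq gene table, which is on another build (GRCh38.p14) and was used only for gene order and names. Group 13 lies on the right, the side of higher coordinates, in HOXA and HOXB, and on the left in HOXC and HOXD. The nearest other coding genes were SKAP2 and EVX1 around HOXA, SKAP1 and TTLL6 around HOXB, CALCOCO1 and SMUG1 around HOXC, and EVX2 and MTX2 around HOXD. Only the HOXB genes had other coding genes among them, PRAC1 and PRAC2, which lie between HOXB9 and HOXB13. The position of single HOX genes within the hg19 spans was not analysed here.

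HOXA and HOXD are the clusters that lay outside long early domains, and promoter sequence was compared between them. The RefSeq promoter table (GRCh38.p14, 250 bases before to 50 after a gene's start) held windows for 9 of 10 HOXA genes and 8 of 9 HOXD genes, but for 1 HOXB and 2 HOXC genes. A comparison over all members is therefore void. The windows of the group 13 and group 4 genes are shown. They were chosen to pair the tail end of both clusters with a gene nearer the head end. They include extremes of CpG content: HOXA13 had the most CpG pairs of all member windows and HOXD4 the fewest in HOXD. CpG pairs, the bases that carry DNA methylation and are dense in CpG islands, are in capitals. Each line reads 5′ to 3′ along the gene's own strand, which is the minus strand for HOXA and the plus strand for HOXD.
HOXA13: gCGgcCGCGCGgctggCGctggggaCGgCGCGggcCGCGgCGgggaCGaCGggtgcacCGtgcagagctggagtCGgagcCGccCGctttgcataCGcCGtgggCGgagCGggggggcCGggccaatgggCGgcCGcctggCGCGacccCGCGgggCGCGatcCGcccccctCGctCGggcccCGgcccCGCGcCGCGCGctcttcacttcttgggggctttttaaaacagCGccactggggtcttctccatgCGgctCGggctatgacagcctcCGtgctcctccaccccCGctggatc
HOXD13: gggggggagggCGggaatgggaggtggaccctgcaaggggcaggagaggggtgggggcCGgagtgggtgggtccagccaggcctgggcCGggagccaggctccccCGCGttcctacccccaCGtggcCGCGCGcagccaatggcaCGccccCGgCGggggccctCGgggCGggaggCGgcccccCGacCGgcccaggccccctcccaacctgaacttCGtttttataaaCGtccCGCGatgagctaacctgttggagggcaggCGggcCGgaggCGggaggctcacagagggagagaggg
HOXA4: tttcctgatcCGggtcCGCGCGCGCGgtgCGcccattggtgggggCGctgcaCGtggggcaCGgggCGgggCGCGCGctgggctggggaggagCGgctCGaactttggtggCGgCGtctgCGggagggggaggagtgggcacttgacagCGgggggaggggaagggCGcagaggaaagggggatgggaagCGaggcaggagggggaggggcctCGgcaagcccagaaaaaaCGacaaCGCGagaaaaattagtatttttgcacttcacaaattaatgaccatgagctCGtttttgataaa
HOXD4: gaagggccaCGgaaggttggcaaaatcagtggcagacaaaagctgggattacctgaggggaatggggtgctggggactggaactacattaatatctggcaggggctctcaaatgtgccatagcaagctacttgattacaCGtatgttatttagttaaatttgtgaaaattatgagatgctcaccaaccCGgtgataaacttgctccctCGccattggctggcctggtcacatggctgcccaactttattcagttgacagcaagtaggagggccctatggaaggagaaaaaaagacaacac

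The HOXA13 window, from a gene of limb and genital tract development, held 44 CpG pairs, and that of its paralogue HOXD13 held 24. The HOXA4 window held 27, while the HOXD4 window held 4. The ratio of observed to expected CpG was 1.01 for HOXA13, 0.60 for HOXD13, 1.03 for HOXA4 and 0.24 for HOXD4. HOXD4 and HOXD13 had the lowest ratios of the 8 HOXD windows, so the pairs shown do not stand for their clusters. In both pairs the HOXA window had the higher ratio, but HOXA11 and HOXD11 went the other way (0.67 and 0.94). Ratios in HOXD ran from 0.24 in HOXD4 to 0.99 in HOXD3, with a median of 0.87 over 8 windows. Those in HOXA ran from 0 in a window of HOXA3, which has 7 of the 16 windows, to 1.27 in HOXA9, with a median of 0.81. The ranges of the clusters overlapped, and both medians lay above the 0.58 of all 35116 windows. Other homeobox genes, such as the EVX, CDX, PBX and MEIS families, had a median of 0.77 over 15 windows of 13 genes. The AsiSI motif GCGATCGC, which reads the same on both strands, was in 0 of the 27 member windows and in 0.208% of all windows. At so low a share, 0 of 27 says nothing particular about the members.

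HOXB and HOXC replicated wholly early in U2OS cells, HOXA replicated mid-early and HOXD replicated mid-late to late. Each base of the HOXB span (210 kb) and the HOXC span (120 kb) was listed as early. Every base of the HOXA span (120 kb) was mid-early. In the HOXD span (110 kb), 54.5% was mid-late and 45.5% late. The mean rank of the spans was thus 1.00 in HOXB and HOXC, 2.00 in HOXA and 3.46 in HOXD, against 2.502 for all listed sequence. Of end-to-end windows of 100 kb over chromosomes 1 to 22 and X, 18.4% were wholly early, against 2 of the 4 spans, which are 110 to 210 kb long.

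**Figure D1:**
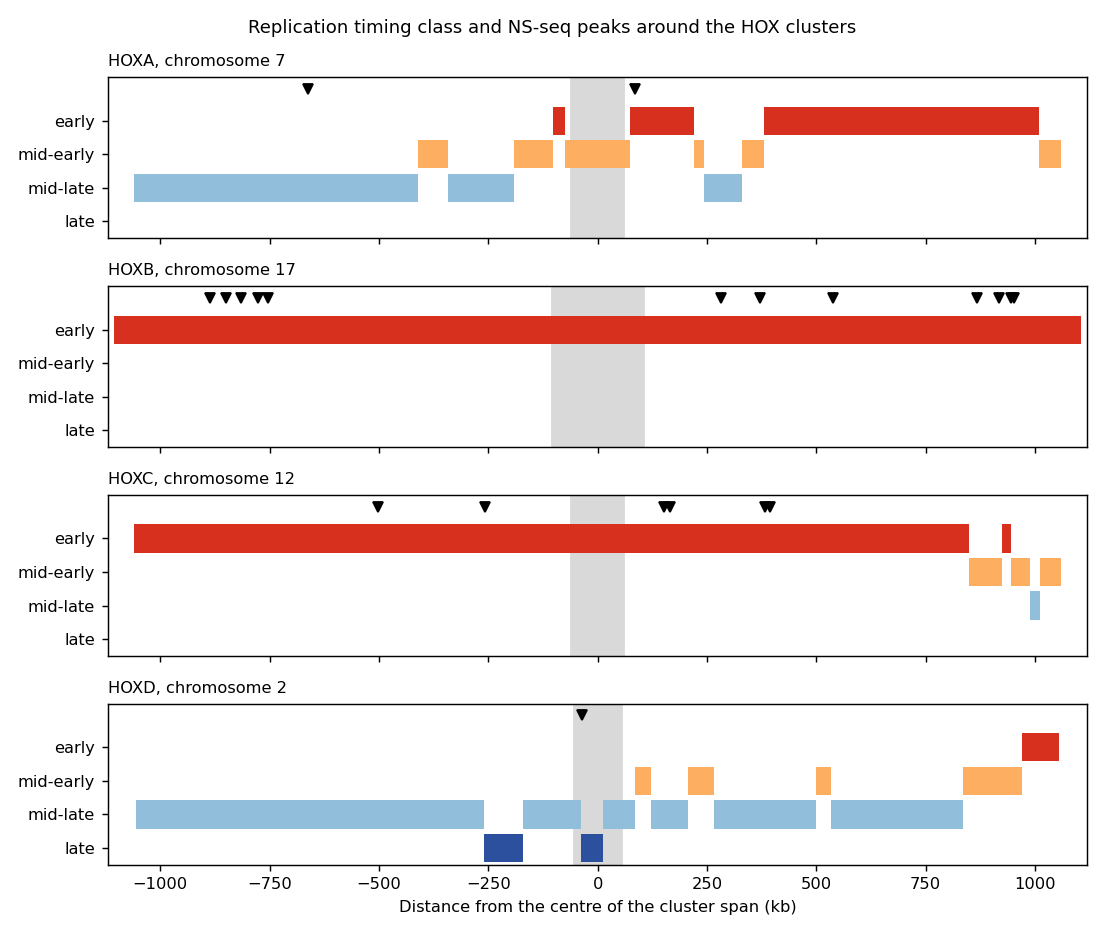
Timing class (rows, coloured bars) along each HOX cluster and its 1 Mb flanks, by distance in kb from the centre of the span (grey), with NS-seq peaks as black triangles. HOXB and HOXC lie in unbroken early sequence. HOXA sits in a mid-early block between early blocks of 27.5 kb on the left and 147 kb on the right. HOXD holds a late block with the only peak found inside a span.

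HOXB, whose genes include HOXB1 of the hindbrain and HOXB13 of the prostate and tail end, lay inside a single early domain. Neighbouring intervals of 1 class were joined into domains, and this one ran from 44976701 to 47986100 on chromosome 17, or 3.01 Mb. It extended 1623 kb to the left of the span, beyond the side of HOXB1, and 1176 kb to the right, beyond HOXB13. Of 2598 early domains, 5 were this long or longer, and they held 2.29% of early bases. Short mid-early domains of 27.4 and 31.7 kb bounded it. The first mid-late base lay 1651 kb to the left and 2638 kb to the right, and the first late base 13179 and 2948 kb away.

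HOXC, which spans HOXC13 of hair and nail, HOXC8 and HOXC9 of the trunk, and HOXC4, lay in an early domain of 2.77 Mb (52466501 to 55240200 on chromosome 12). Of the early domains, 10 were this long or longer and held 4.15% of early bases. The border on the side of HOXC13 lay 1864 kb from the span. The left flank, beyond HOXC13, was wholly early. The right flank, beyond HOXC4, was 81.2% early, 16.5% mid-early and 2.26% mid-late, with 5 class changes, of which the nearest lay 790 kb from the span. Late sequence lay 9149 kb to the left and 5425 kb to the right.

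HOXA lay at the change from later to earlier sequence along chromosome 7. Its span sat in a mid-early domain of 148 kb (27114901 to 27263300), which reached 15.1 kb past the span on the side of HOXA2, a gene of hindbrain and face patterning, and 13.3 kb past it on the side of HOXA13. An early domain of 27.5 kb adjoined it on the left and one of 147 kb on the right. The left flank was 80.2% mid-late, 17.1% mid-early and 2.75% early. The right flank was 77.6% early, 13.6% mid-early and 8.87% mid-late. Mean rank was 2.77 on the left and 1.31 on the right, a difference (right minus left) of -1.46, the widest of the 4 clusters in 1 Mb flanks. Neither flank held late sequence, which began 4969 kb to the left and 10125 kb to the right.

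The left HOXA flank had 5 class changes and the right flank 6, close to the 4.53 per Mb of all listed sequence and 4.44 per Mb of chromosome 7. Several of the alternating blocks were short, such as mid-early blocks of 22.2 and 48.6 kb to the right of the cluster, with a mid-late block of 88.7 kb between them. Without intervals under 50 kb, the changes in both flanks fell from 11 to 6.

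HOXD, whose HOXD13 to HOXD10 genes pattern the limbs and HOXD3 and HOXD4 the hindbrain and neck, was the only cluster with class changes inside its span. Mid-late sequence (176834901 to 176966200 on chromosome 2) gave way to a late domain of 50.1 kb (176966201 to 177016300), followed by mid-late sequence to 177090400. Of the late domains, 80.5% were this long or longer, so it was among the shorter ones. A 100 kb window with 2 or more class changes made up 8.79% of such windows, and 1 of the 4 spans had as many. Another late domain of 89.3 kb ended 115 kb to the left of the span, beyond HOXD13 and its coding neighbour EVX2. The late domain inside the span is 1 deposited interval only just above the 50 kb limit used for short intervals, and dropping intervals under 60 kb left 0 class changes.

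The HOXD flanks were mostly mid-late. The left flank, beyond HOXD13, was 91.1% mid-late and 8.93% late, with 2 class changes. The right flank, beyond HOXD1, was 65.0% mid-late, 26.5% mid-early and 8.46% early, with 8 class changes. Early sequence began 915 kb to the right and 1158 kb to the left. Mean rank was 3.09 on the left and 2.57 on the right, a difference of -0.52 that turned to 0.095 with flanks of 2 Mb. Of 1 Mb windows, 27.8% had 7 or more class changes, against 1 of the 8 HOX flanks, so this count was no more frequent than in the background.

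**Figure D2:**
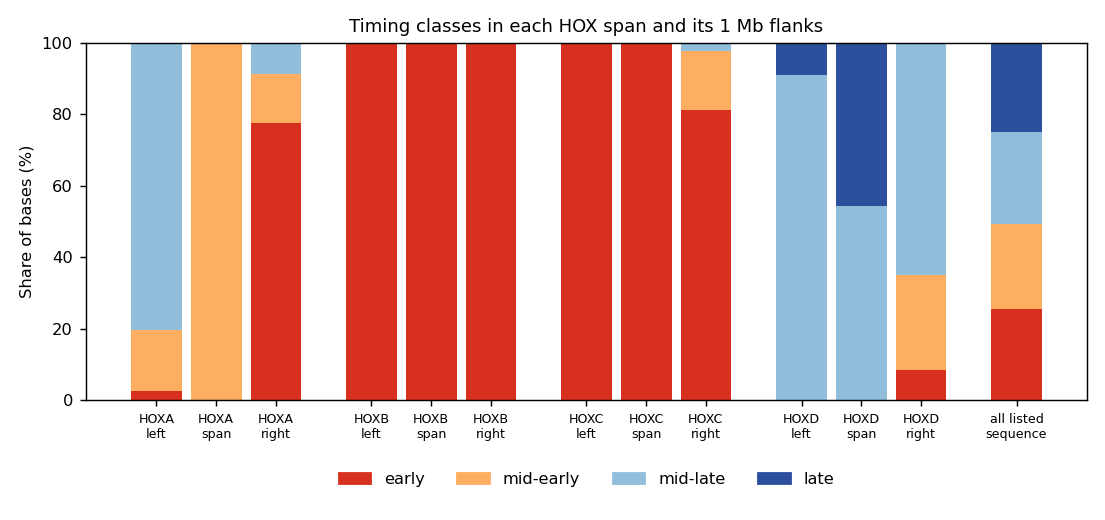
Share of bases (%) in each timing class for the span and the left and right 1 Mb flanks of each cluster, with all listed sequence as the last bar. The HOXB bars are early throughout, HOXC differs from them in its right flank (81.2% early), HOXA turns from 80.2% mid-late on the left to 77.6% early on the right, and HOXD has the late sequence (45.5% of its span).

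In 1 Mb flanks, group 13 did not mark the earlier or later side. In HOXA the side of group 13 was the earlier one, and in HOXC it was earlier by 0.21 rank (1.00 against 1.21). In HOXD it was the later one, and in HOXB both sides had rank 1.00. With flanks of 2 Mb the side of group 13 was the earlier one in each cluster. Right minus left was then -1.22 in HOXA, -0.048 in HOXB, 0.276 in HOXC and 0.095 in HOXD. With flanks of 0.5 Mb the difference was 0 in HOXB and HOXC and -0.44 in HOXD. Of the 8 flanks, 3 were wholly early, both of HOXB and the left of HOXC, while 2.78% of 1 Mb windows were. Flanks of 1 cluster share a neighbourhood and are not independent.

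Chromosomes differed in timing beside these clusters. Early sequence made up 54.8% of chromosome 17, which carries HOXB, and 29.1 to 29.6% of chromosomes 2, 7 and 12. HOXB and its flanks, at 100% early, stood above that share of their chromosome, and HOXC and its flanks, at 91.1%, stood above the 29.4% of chromosome 12. HOXA and its flanks were 37.9% early and HOXD and its flanks 4.01% early.

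NS-seq peaks were listed in the flanks of HOXA, HOXB and HOXC but not inside their spans, while HOXD had 1 peak inside its span and none in its flanks. Of 100 kb windows 8.02% held a peak, and of 200 kb windows 13.1%, so a span without a peak was the common case. The upper limits of the exact 95% Poisson intervals for the spans without a peak were 17.6 to 30.7 per Mb. These counts therefore cannot show a lack of origins inside the clusters. Over all 8.56 Mb the density was 2.45 peaks per Mb (exact 95% Poisson interval 1.52 to 3.75). HOXB and its flanks held 12 peaks, HOXC 6, HOXA 2 and HOXD 1. In density this was 5.43 peaks per Mb for HOXB (exact 95% Poisson interval 2.81 to 9.48), 2.83 for HOXC (1.04 to 6.16), 0.943 for HOXA (0.114 to 3.41) and 0.474 for HOXD (0.012 to 2.64). These intervals cover counting error only and treat peaks as independent. The HOXB interval lay wholly above that of HOXD and above the 1.24 peaks per Mb of all nuclear sequence, but it held the 3.81 of its own chromosome 17. The intervals of HOXC and HOXD held the values of chromosomes 12 (1.34) and 2 (0.872), and that of HOXA held the 2.22 of chromosome 7. The order depended on the flank width. With flanks of 0.5 Mb, HOXC held 6 peaks (5.36 per Mb, 1.97 to 11.7), HOXB 3 (2.48, 0.511 to 7.25), and HOXA and HOXD 1 each (0.893 and 0.901). HOXC was then the densest, its interval lay above the value of chromosome 12, and that of HOXB overlapped all the others. The chromosome 12 value counts gaps of 39.6 and 45.4 Mb without listed peaks. Outside them and the 9.79 Mb stretch that holds HOXC, the chromosome had 3.69 peaks per Mb, within the HOXC interval. Of windows as long as HOXB with its 1 Mb flanks, 5.74% held as many peaks or more. Of windows as long as HOXD with its 1 Mb flanks, 69.5% held as few or fewer.

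**Figure D3:**
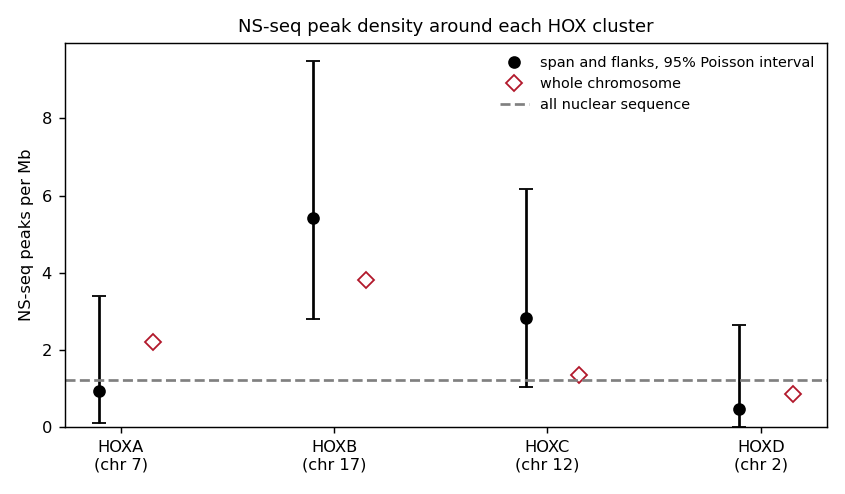
NS-seq peaks per Mb in each span with its 1 Mb flanks (black points, exact 95% Poisson intervals of the count), on the whole chromosome (open diamonds) and over all nuclear sequence (dashed line). At this flank width HOXB is the densest at 5.43 and HOXD the sparsest at 0.474, an order that changes with flanks of 0.5 Mb (HOXC 5.36, HOXB 2.48), and each interval drawn includes the density of its own chromosome.

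Peaks flanked HOXB without entering it. The 5 peaks of the left flank lay 648 to 780 kb from the span, and the 7 of the right flank 176 to 847 kb from it. The nearest on the left (45950768 to 45951767) scored 12.0 and the nearest on the right (46985999 to 46986998) scored 10.7, where the score is the authors' value per peak, deposited without a stated scale. The highest scores were 12.5 on the left (45888279 to 45889278) and 14.5 on the right (47242349 to 47243348). Between the nearest peaks lay 1034 kb without a listed peak, inside an early domain that held 15 peaks in all. This was the longest of the 14 gaps in that domain, whose median was 68.6 kb. Over the genome, 9 of 863 gaps within 1 early domain were as long, and they made up 12.6% of the summed gap length. A gap chosen because it holds a given span tends to be a long one, so these shares are a description.

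HOXC was flanked more closely. The nearest peaks lay 197 kb to the left (54132340 to 54133339, score 12.3) and 92.0 kb to the right (54542038 to 54543037, score 12.9). The left flank held 1 more peak, at 442 kb with a score of 11.3, and the right flank 3 more, with scores of 13.6, 14.3 and 10.1 at 106, 322 and 334 kb. The highest of these lay at 54771998 to 54772997. The gap across the HOXC span was 409 kb, 1 of the 2 longest of the 7 gaps in its domain, and 52 of 863 gaps within 1 early domain were as long or longer.

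**Figure D4:**
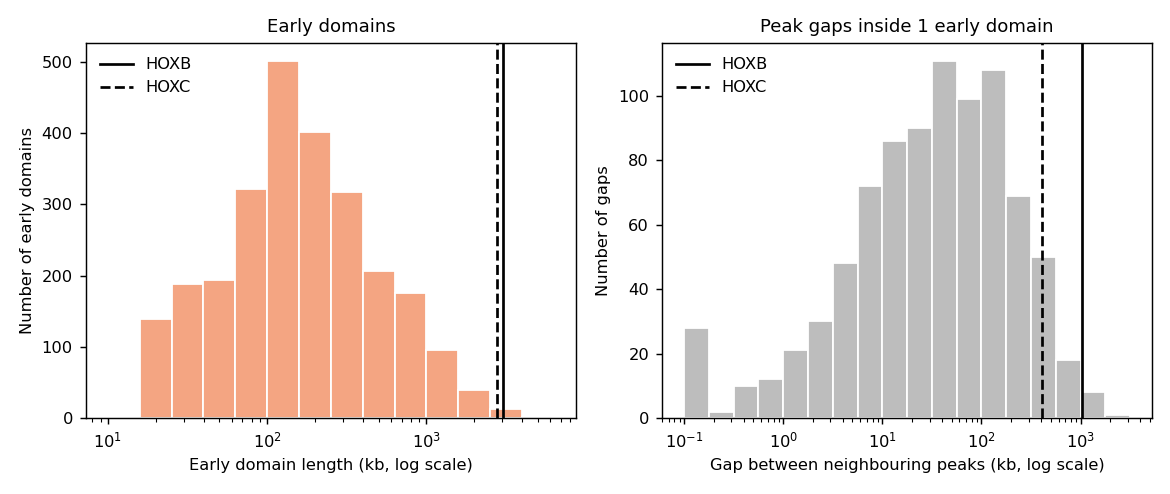
Left, lengths of the early domains (kb, log scale), with lines at the domains that hold HOXB (3009 kb) and HOXC (2774 kb); 2 domains under 10 kb are not drawn. Right, gaps between neighbouring NS-seq peaks of 1 early domain (kb, log scale), with lines at the gaps across HOXB (1034 kb) and HOXC (409 kb); gaps under 0.1 kb, including overlapping peaks, are in the lowest bar.

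Around HOXA, 1 peak lay just beyond the side of HOXA13. It spanned 27275652 to 27276651, 25.7 kb from the span, in the early domain that follows the mid-early block and 12.9 kb from a class change. Its score was 10.8. The other peak lay 602 kb to the left in mid-late sequence (26526874 to 26527873, score 10.5). Both scores were below the nuclear median of 11.8, and the gap across the span was 748 kb.

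The HOXD peak lay in the late domain inside the cluster. It spanned 176969567 to 176970566, 3.87 kb from the change to mid-late sequence by its midpoint, and scored 11.4. Of nuclear peaks, 42.7% scored this or less. Inside HOX spans 1 of 4 held a peak, against 8.02% of 100 kb windows. Of 346 late domains that lay between mid-late neighbours and were as short or shorter, 12 held a peak (3.47%), the HOXD domain among them. The median length of these domains was 30.35 kb. Of all 1779 late domains between mid-late neighbours, whatever their length, 138 held a peak (7.76%). No peak lay in either HOXD flank, while 6 of the 8 HOX flanks held at least 1 peak, against 33.3% of 1 Mb windows. Both HOXB flanks held 5 or more peaks (2 of 8 flanks), against 8.12% of windows. These windows cover all chromosomes but Y, whereas chromosomes 7 and 17 held 2.22 and 3.81 peaks per Mb, against 1.24 for all nuclear sequence. Shares of windows per chromosome were not computed, so these counts do not show an excess around HOX clusters.

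This peak lay far from its neighbours on chromosome 2. The nearest peak on the left (174877423 to 174878422, score 14.04) lay 2.09 Mb from it, and the nearest on the right (216946074 to 216947073, score 11.7) lay 40.0 Mb from it. The median gap between neighbouring nuclear peaks was 87.1 kb, and 7 of 3709 gaps were as long as the right one or longer. Sequence between these neighbours was 22.5% early, 19.2% mid-early, 32.7% mid-late and 25.6% late. The list holds no score below 10.0, so sequence without a listed peak may still hold weaker origins. Whether the list covers all of these stretches was not tested, and the distances and the densities per chromosome rest on the list as it stands.

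By timing class, 19 of the 21 HOX peaks were early, 1 mid-late and 1 late, with 0 in mid-early sequence. Of all nuclear peaks, 37.7% were early and 30.7% mid-early. The bases of the spans and flanks were themselves 58.8% early and 10.0% mid-early, against 25.5% and 23.7% of all listed sequence. The HOXB and HOXC peaks, 18 in all, lay in the 2 early domains described above and share them. Scores of the 21 peaks ran from 10.1 to 14.5 with a median of 11.4, and those of all 3733 nuclear peaks from 10.0 to 23.8 with a median of 11.8. The median distance to a class change was 698 kb for the HOX peaks and 52.0 kb for all nuclear peaks. It was 860 kb around HOXB, 691 kb around HOXC and 133 kb around HOXA, and 3.87 kb for the HOXD peak.

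No break site bound by MRE11 lay in a HOX span or within 1 Mb of one. Only 4.07% of 1 Mb windows held such a site, so a count of 0 in 8 flanks is near the background. The nearest sites lay 2.35 Mb to the right of HOXA (29604606 to 29604613), 4.16 Mb to the left of HOXB (42440934 to 42440941), 21976 kb to the right of HOXC (76425666 to 76425673) and 4.66 Mb to the left of HOXD (172289897 to 172289904). All 4 of these sites lay in sequence that is early in U2OS cells. The share of all listed sites in early sequence is not given here, so this is not a trait of these 4. Their chromosomes carried 7, 12, 2 and 8 listed sites. Since breaks were mapped in HCT116 and timing in U2OS, these distances cross cell lines.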

How the data were processed

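The files used were 6 lists of regions: 4 timing lists of U2OS cells, 1 merged NS-seq list and 1 list of AsiSI sites overlapping MRE11. Per the submitters' processing notes the build was hg19 and MACS2 was used, with no version or role; the aligner, the filters, the pooling and the way timing classes were cut were not given in the sources used here. Timing and break lists were deposited as positions only. The NS-seq list was deposited with a score per peak by the authors, whose scale is not stated. Timing intervals lie on a grid of 100 bp, peaks are 1000 bp wide and break sites 8 bp.

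Regions were cut at the span and flank bounds and bases counted per class with Python 3.11.15, pandas 2.3.3 and numpy 2.4.6. Neighbouring intervals of 1 class were joined into domains, and a class change is a border between domains. Mean rank weights ranks 1 to 4 by bases. Peaks were placed by midpoint. Exact Poisson intervals (95%) came from scipy 1.17.1. Background windows were laid end to end over chromosomes 1 to 22 and X. Counting functions were tested on simulated data. No test was run, because each list is 1 set of calls. Regions named were the spans, the domains that hold or adjoin them, peaks in spans, the nearest and highest-scoring peaks of each flank, and the nearest break sites. Other named features, among them the gaps between peaks, were chosen after their values were seen. Members, spans and lists were chosen with earlier results of these data known. Alternatives changed the flank width, the classes, short intervals, the peak rule and the windows.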

Additional observations from a re-analysis of the deposited data

How the results depend on the processing

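Over 20 results, 67 alternatives were computed, 63 of them listed with the design and 4 added after seeing the data. In 49 the value stayed within 1.5 times for a count or share, or within 0.25 rank for a difference between flanks. Widening each span by 50 kb gave 3 class changes for HOXA in place of 0. Joining early with mid-early and mid-late with late gave 0 class changes inside HOXD in place of 2, as did dropping intervals under 60 kb (0). The rank difference between the HOXA flanks was -1.03 with flanks of 0.5 Mb, and that of HOXD turned to 0.095 with flanks of 2 Mb. Class changes in both flanks fell from 11 to 6 (short intervals dropped) and 5 (classes joined) for HOXA, from 5 to 1 and 2 for HOXC, and from 10 to 6 (short intervals dropped) for HOXD.

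Peak counts moved with the width of the flanks: with 0.5 Mb they were 1 for HOXA, 3 for HOXB, 6 for HOXC and 1 for HOXD, so HOXC held more than HOXB, and with 2 Mb they were 23 for HOXB and 11 for HOXC. Counting peaks at or above the median score left 0 for HOXA, 6 for HOXB and 0 for HOXD. Windows of 200 kb held a peak in 13.1% of cases, against 8.02% at 100 kb. Counts of break sites were 0 at every flank width. No paired analysis was possible because each kind of region is given as 1 list and no list separates replicates. Unknown read depth and the lowest listed score of 10.0 limit what the absence of a peak can show.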

Other observations

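The HOXC cluster lay in a largely early stretch of chromosome 12 bounded on both sides by very long sequence without listed peaks, a pattern noticed after the values were seen. Between 48130578 and 57923348 there were 36 NS-seq peaks in 9.79 Mb, or 3.68 per Mb, which is 20.0% of the 180 peaks of the chromosome. The rest of the chromosome, outside the stretch and these gaps, held 144 peaks in 39.0 Mb, or 3.69 per Mb, so the density of the stretch was not particular to it. This stretch was 90.1% early, 9.66% mid-early and 0.231% mid-late, with no late sequence. The gap to its left was 39.6 Mb long (8544725 to 48130577) and 16.9% early, and the gap to its right was 45.4 Mb long (57923349 to 103367042) and 19.5% early. Only 8 gaps between neighbouring nuclear peaks exceeded 30 Mb. These gaps and the one that begins at the HOXD peak make up 3 of the 8. The HOXC span lay inside the stretch and not at its edge. Whether the list covers these gaps was not tested.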
